A study of Mus musculus with 6 samples.

Results

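Histone lysine methyltransferases and demethylases are the enzymes that add methyl groups to lysines of histone tails and take them off. A list of 37 such genes outside the polycomb complexes was followed here across 3 groups of mouse B-lineage cells. A gene counted as measured where a probe set of the array carried its symbol alone in the platform annotation, and where a gene had several such probe sets the brightest over the 6 arrays stood for it. In this way 35 of the 37 genes were measured, of 19938 genes in all. Ash1l and Suv39h1 were not analysed here. The measured genes comprised 21 methyltransferases and SET domain proteins and 14 demethylases.

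All 6 arrays came from mice with the Em-Myc transgene, which drives the Myc oncogene from the immunoglobulin heavy chain enhancer and so acts mainly in the B lineage. One group held splenic B cells taken at the premalignant stage, which the titles and sources call premalignant Em-Myc cells and the characteristics call normal control B cells. The others held B cell lymphomas raised with a short hairpin RNA against Ezh2, the H3K27 methyltransferase of polycomb repressive complex 2, 2 hairpins being used, shEzh2.781 for one group of tumours and shEzh2.556 for the other group. Each group had 2 arrays of total RNA on the Affymetrix Mouse Gene 1.0 ST platform. Lymphoma cells had been purified by CD43 bead depletion and at least 95% of them carried B220 and GFP. The sources used here gave no ages for the mice. Every lymphoma carried an Ezh2 hairpin, so malignancy, the hairpin and the way the cells were purified cannot be told apart in a comparison with premalignant cells. The labels do not state whether the 2 arrays of a group came from separate animals, so for the lymphomas the p-values below rest on a spread between samples that may be technical. The 2 premalignant arrays differed from each other in Y-linked genes, by values given with the hairpin comparison, so they were not repeats of 1 sample.

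Methylation of H3K4 marks promoters and enhancers in use, methylation of H3K36 and H3K79 follows transcribed gene bodies, and methylation of H3K9 is the mark of silent chromatin and of heterochromatin. The marks are laid by SET domain enzymes, and in the case of H3K79 by Dot1l, which has no SET domain. The listed demethylases are amine oxidases of the Kdm1 family and Jumonji dioxygenases of the Kdm2 to Kdm6 and Phf families. Several of these genes, among them Kmt2a and Kmt2d, are recurrently altered in leukaemia or lymphoma.

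In the lymphomas most of the 14 listed demethylases fell, while most of the 21 measured methyltransferases and SET domain proteins of the list did not pass the test. Of the 35 genes, 14 fell and 1 rose against premalignant cells (limma, adjusted p under 0.05 by Benjamini-Hochberg over all genes), whereas 9.61% of all 19938 genes were called lower and 5.6% higher. Among the 8097 genes whose mean signal was at or above that of the dimmest member, 13.6% were called lower and 8.72% higher. The falls comprised 11 of the 14 demethylases and 3 of the 21 methyltransferases and SET domain proteins. Phf2, a demethylase of H3K9, fell 1.77-fold, and Kdm1b, an amine oxidase that acts on H3K4, fell 1.89-fold. The single rise was that of Smyd2, a lysine methyltransferase of the SMYD family, at 1.56-fold. The median log2 difference was -0.26 over the 35 genes, -0.40 over the demethylases and -0.18 over the methyltransferases and SET domain proteins, against 0.03 over all genes. The 12 demethylases outside the list had a median of 0.04, with 7 values above 0, 5 below and 1 call. Among all genes 11087 values lay above 0 and 8851 below. No test compared demethylases with methyltransferases. In 22 of the 35 genes all 4 lymphoma arrays lay below both premalignant arrays, which was true of 16.1% of all genes, and in 3 (Setd7, Setd3 and Smyd2) all 4 lay above, as in 12.7% of all genes.

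**Figure D1:**
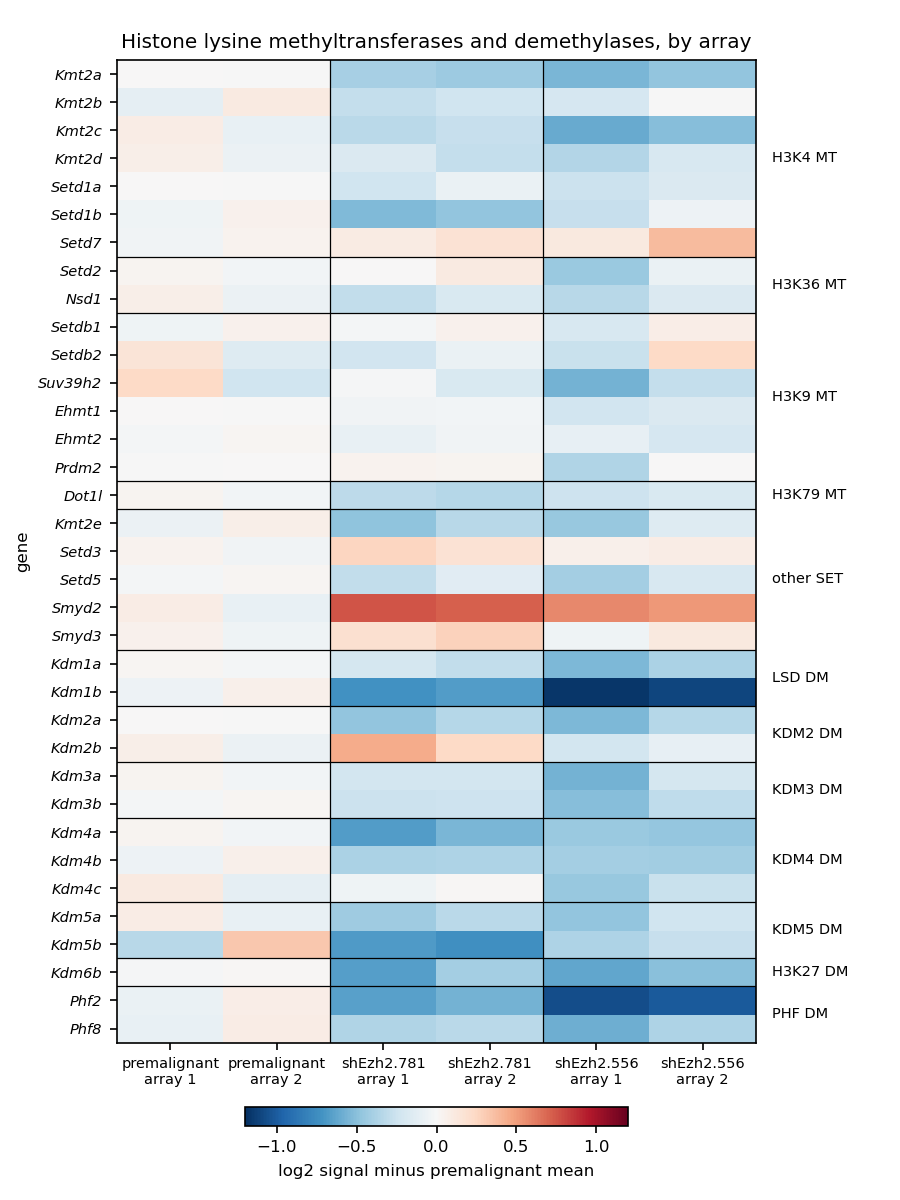
Each row is 1 of the 35 genes and each column 1 of the 6 arrays. Colour gives the log2 signal minus the mean of the 2 premalignant arrays, blue for lower and red for higher, and labels at the right give the role (MT, methyltransferase; DM, demethylase). The demethylase rows are mostly blue in the 4 lymphoma columns, deepest for Kdm1b and Phf2, and Smyd2 is the only row clearly red in all 4.

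Of the 15 calls, 9 were left when premalignant array 1 was omitted, 7 when premalignant array 2 was omitted and 9 on omission of the shEzh2.556 array 1. Kmt2a, Smyd2, Kdm1b, Kdm4a, Kdm6b and Phf2 were called with any 1 of the 6 arrays left out, and these 6 were also the only calls left when the 4 lymphoma arrays were fitted as 1 group. That fit ended the calls on Kdm4b (adjusted p = 0.0605), Kdm2a (0.061), Phf8 (0.0926), Kmt2c (0.108), Kdm5a (0.122), Kdm1a (0.144), Kdm3b (0.157), Kdm5b (0.218) and Setd1b (0.276). Quantile normalization ended those on Kdm5a (adjusted p = 0.0504), Setd1b (0.0614) and Kdm5b (0.0883).

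Some facts of the samples move with these comparisons. Ezh2 itself read 12.64 and 12.70 (log2 signal) in premalignant cells, 10.92 and 11.07 in shEzh2.781 lymphomas and 11.20 and 11.30 in shEzh2.556 lymphomas. It was thus lower in every lymphoma array and fell by 1.55 (SE 0.10, limma adjusted p = 1.31e-06). It is the gene that the hairpins target. Markers of B cells were bright in all groups, with the summed linear signal of 9 markers between 33514 and 34318 in premalignant cells, between 29379 and 33382 with shEzh2.781 and between 30385 and 31449 with shEzh2.556. Of these 9, 3 fell and 1 rose. For this and the marker counts that follow, 9.61% of all genes were called lower and 5.6% higher. None of the 11 neutrophil markers had a mean over the 6 arrays below the 25th percentile of all gene values. A mean over all arrays cannot show whether these markers were present in each group. Their summed linear signal lay between 9985 and 11513 in premalignant cells, between 3720 and 6159 with shEzh2.781 and between 1035 and 1668 with shEzh2.556, and 11 of 11 fell in the lymphomas (median difference -2.05). Of 19 mitosis genes, 14 fell (median difference -0.42), with summed signals from 60017 to 61484 in premalignant cells, from 45551 to 50712 with shEzh2.781 and from 43104 to 45857 with shEzh2.556. Of 10 pro-B and pre-B cell markers, 8 fell and 1 rose (median difference -1.47). Of 6 erythroid markers 3 fell (median -0.47), with summed signals from 4243 to 4798 in premalignant cells, from 3071 to 3329 with shEzh2.781 and from 3819 to 4047 with shEzh2.556. Of 5 megakaryocyte and platelet markers 3 fell (median -0.73), with sums from 787 to 1527, from 407 to 425 and from 503 to 522. In the remaining lists 2 of 9 T cell markers and 4 of 7 NK cell markers fell. Of these lists, 2 T cell and 4 NK cell markers had a mean over the 6 arrays below the 25th percentile of all gene values. Of the dendritic cell markers 3 of 7 fell and of the plasma cell markers 3 of 6, with 1 rise each. Of 9 macrophage and monocyte markers 1 fell and 2 rose. The part of these shifts in the results for the histone enzymes was not tested. In such bulk samples fewer cells of a type and less RNA per cell cannot be told apart.

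The promoters of the 4 genes that lead the comparison are shown because the 3 falls with the smallest p-values and the only rise can be read side by side there. Each line gives the 250 bases before the start of the gene on its own strand, 5′ to 3′, from the RefSeq promoter table for GRCm38.p6, with every CG dinucleotide in capitals. Phf2 lies on the minus strand at chr13:48870886-48871135, Kdm1b on the plus strand at chr13:47043249-47043498, Kdm4a on the minus strand at chr4:118180044-118180293 and Smyd2 on the minus strand at chr1:189922292-189922541.
Phf2: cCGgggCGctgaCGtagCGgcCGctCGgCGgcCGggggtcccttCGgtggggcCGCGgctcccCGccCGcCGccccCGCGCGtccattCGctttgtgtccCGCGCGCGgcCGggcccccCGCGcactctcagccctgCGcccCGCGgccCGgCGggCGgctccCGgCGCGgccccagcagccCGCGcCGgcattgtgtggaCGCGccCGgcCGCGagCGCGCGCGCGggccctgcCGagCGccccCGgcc
Kdm1b: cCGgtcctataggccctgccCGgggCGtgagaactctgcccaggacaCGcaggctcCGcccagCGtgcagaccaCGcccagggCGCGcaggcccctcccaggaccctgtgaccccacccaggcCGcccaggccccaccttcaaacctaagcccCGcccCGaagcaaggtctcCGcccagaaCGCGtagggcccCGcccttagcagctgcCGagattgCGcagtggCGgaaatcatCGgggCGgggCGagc
Kdm4a: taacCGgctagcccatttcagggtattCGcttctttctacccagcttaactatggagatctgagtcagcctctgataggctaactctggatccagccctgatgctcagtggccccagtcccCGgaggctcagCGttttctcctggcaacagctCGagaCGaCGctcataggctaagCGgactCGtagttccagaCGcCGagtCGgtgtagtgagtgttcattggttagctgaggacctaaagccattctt
Smyd2: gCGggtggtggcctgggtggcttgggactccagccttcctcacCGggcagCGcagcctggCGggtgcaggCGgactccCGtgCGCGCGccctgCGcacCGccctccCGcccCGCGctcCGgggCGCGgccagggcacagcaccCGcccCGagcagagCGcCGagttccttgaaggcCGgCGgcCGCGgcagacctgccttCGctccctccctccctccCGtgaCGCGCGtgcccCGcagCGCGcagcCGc

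These windows hold 50 CG dinucleotides for Phf2, 22 for Kdm1b, 12 for Kdm4a and 34 for Smyd2. The median over the 32851 windows of the table is 6, and the share of windows with at least as many is 0.0944% for Phf2, 14.8% for Kdm1b, 33.5% for Kdm4a and 3.53% for Smyd2. The windows of Phf2, Kdm1b and Smyd2 lie above the 75th percentile of the table (16 CG). That of Kdm4a lies between this percentile and the median. Of the 35 measured genes, 24 have at least 1 window in the table, with a median of 25.5 CG over their 32 windows. The letters CACGTG, the canonical E-box that Myc and its partner Max bind, read the same on both strands. They occur in 6.02% of all windows and in 3 of the 32 windows here, those of Kdm4c and Ehmt2, neither of which passed the test, and in none of the 4 windows printed. A match in such a window is a description of its letters only.

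**Figure D2:**
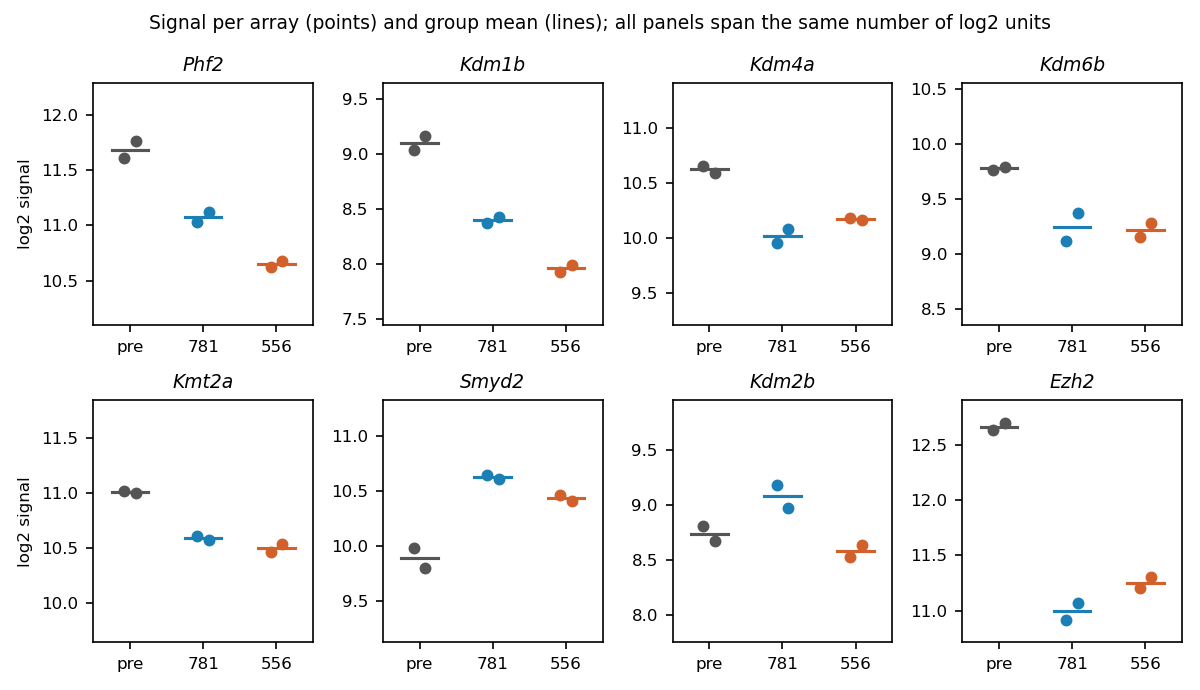
Points are the log2 signals of single arrays and lines the group means, for premalignant cells, shEzh2.781 lymphomas and shEzh2.556 lymphomas from left to right, with each panel spanning the same number of log2 units around its own midpoint. Phf2 and Kdm1b step down from premalignant to shEzh2.781 to shEzh2.556, Smyd2 is higher in both hairpin groups, Kdm2b separates the hairpins, and Ezh2 shows the targeted gene.

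Among the methyltransferases of H3K4, 3 of 7 fell and none rose. Kmt2a (MLL1), which maintains Hox gene expression and is the target of translocations in leukaemia, read 11.01 and 11.00 in premalignant cells, 10.61 and 10.57 with shEzh2.781 and 10.46 and 10.53 with shEzh2.556. Every lymphoma array was lower than both premalignant arrays, and the difference was -0.46 (SE 0.09, 95% interval -0.67 to -0.26, limma adjusted p = 0.00524). Kmt2c (MLL3), which primes enhancers, read 10.43 and 10.24, then 10.01 and 10.06, then 9.73 and 9.83 in the same order of groups. Its 3 groups did not overlap, and it fell by 0.43 (SE 0.10, adjusted p = 0.0128 by limma). Setd1b, the catalytic subunit of a COMPASS complex that trimethylates H3K4 at promoters, read 10.64 and 10.76, 10.17 and 10.23, and 10.43 and 10.64. Here the shEzh2.781 arrays were the lowest and the higher shEzh2.556 array came close to the lower premalignant one, with a difference of -0.33 (SE 0.10, adjusted p = 0.0482). The call on Kmt2c was lost without premalignant array 1 (-0.33, adjusted p = 0.125). That on Setd1b was lost on leaving out either of the premalignant or of the shEzh2.781 arrays, and without shEzh2.556 array 1, with adjusted p between 0.0774 and 0.22.

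The other enzymes of this mark did not pass the test. Kmt2b (MLL2), which acts at bivalent promoters, differed by -0.18 (adjusted p = 0.312). Kmt2d (MLL4), the enhancer enzyme that is often mutated in germinal centre lymphomas, differed by -0.25 (adjusted p = 0.131), although its 4 lymphoma arrays were all lower than both premalignant arrays. Setd1a, the paralogue of Setd1b, also had all 4 lymphoma arrays below both premalignant arrays, with a difference of -0.19 (adjusted p = 0.253). Setd7, a monomethyltransferase with many targets other than histones, was the exception in sign at 0.19 (adjusted p = 0.29). Its premalignant arrays read 9.31 and 9.40 and its lymphoma arrays from 9.45 to 9.74, so that all 4 lymphoma values were higher than both premalignant ones.

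None of the measured methyltransferases of H3K36, H3K9 or H3K79 in the list passed the test. Setd2, the enzyme of H3K36 trimethylation, read 10.52 and 10.46 in premalignant cells, 10.49 and 10.59 with shEzh2.781 and 10.04 and 10.40 with shEzh2.556, a difference of -0.10 (adjusted p = 0.636). Its shEzh2.556 arrays were the lowest and the farthest apart. Nsd1, which dimethylates H3K36, differed by -0.25 (adjusted p = 0.139). The 6 genes for H3K9 methylation had differences from -0.26 to -0.02, all below 0 and none called, with a median of -0.10. Suv39h2, an enzyme of pericentric heterochromatin, differed by -0.26 (adjusted p = 0.259), with premalignant arrays at 8.40 and 7.93 that enclosed the shEzh2.781 values. Ehmt1 (GLP) and Ehmt2 (G9a), which form a dimer that dimethylates H3K9 in euchromatin, had differences of -0.12 and -0.11 (adjusted p = 0.477 and 0.542). Setdb1, which silences endogenous retroviruses with Trim28, had a difference of -0.02 with a 95% interval from -0.26 to 0.21. That interval bounds a change of Setdb1 in these samples, but the sign of the value turned under quantile normalization (0.03). Setdb2 (-0.08) and Prdm2 (-0.07), 2 further SET domain proteins linked to H3K9, had overlapping groups, and Setdb2 was at 0.0048 after quantile normalization. Dot1l, the only enzyme of H3K79, read 11.27 and 11.21 in premalignant cells and from 10.90 to 11.06 in lymphomas. Its 4 lymphoma arrays lay below both premalignant arrays, and the difference of -0.27 missed the threshold (adjusted p = 0.0784).

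Among 5 further SET domain proteins with other substrates or with little activity of their own, 1 rose. Smyd2, which methylates histones and many other proteins in the cytoplasm and nucleus, read 9.98 and 9.80 in premalignant cells, 10.64 and 10.60 with shEzh2.781 and 10.46 and 10.41 with shEzh2.556. All 4 lymphoma arrays were higher than both premalignant arrays, those with shEzh2.781 the highest, and the difference was 0.64 (SE 0.10, 95% interval 0.42 to 0.86, adjusted p = 0.000903). Its relative Smyd3 differed by 0.13 (adjusted p = 0.451) and had overlapping groups. Setd3, the histidine methyltransferase of actin, differed by 0.14 (adjusted p = 0.381). Kmt2e (MLL5), a reader of H3K4 methylation with no established catalytic activity, differed by -0.36 (adjusted p = 0.0542), and its 4 lymphoma arrays, from 10.13 to 10.45, were lower than the premalignant ones at 10.54 and 10.67. Setd5 differed by -0.26 (adjusted p = 0.131).

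The amine oxidases both fell. Kdm1b (LSD2), best known for removing H3K4 methylation in oocytes before imprints are set, read 9.03 and 9.16 in premalignant cells, 8.37 and 8.43 with shEzh2.781 and 7.93 and 7.99 with shEzh2.556. The 3 groups were separate and each was tight, and the fall of 0.92 (SE 0.10, 95% interval -1.13 to -0.71, adjusted p = 5.42e-05) was the largest of the 35 genes. Kdm1a (LSD1), the demethylase of the CoREST complex that the Gfi1 repressors recruit in blood cells, read 10.56 and 10.52, 10.33 and 10.25, and 10.001 and 10.16. It had the same order of groups and fell by 0.36 (SE 0.10, adjusted p = 0.0293). The Kdm1a call was lost without either premalignant array, without shEzh2.781 array 2 and without shEzh2.556 array 1, with adjusted p from 0.0821 to 0.145.

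Of the Kdm2 pair, 1 fell. Kdm2a, which binds unmethylated CpG islands and removes H3K36 dimethylation there, read 10.18 and 10.17 in premalignant cells, 9.70 and 9.83 with shEzh2.781 and 9.63 and 9.84 with shEzh2.556. Both hairpin groups lay below the premalignant arrays and overlapped each other, and the fall was 0.43 (SE 0.10, adjusted p = 0.0145 by limma). The call was lost without premalignant array 1 (adjusted p = 0.0865) or 2 (adjusted p = 0.0825). Kdm2b, its paralogue and the CpG island subunit of a variant polycomb complex, read 8.80 and 8.67, 9.18 and 8.97, and 8.52 and 8.64. The hairpin groups lay on opposite sides of the premalignant mean, and their mean differed from it by 0.09 (adjusted p = 0.65).

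The Kdm3 enzymes remove mono- and dimethylation of H3K9. Kdm3b read 11.15 and 11.20 in premalignant cells, 10.92 and 10.92 with shEzh2.781 and 10.66 and 10.87 with shEzh2.556, without overlap between premalignant cells and lymphomas. It fell by 0.33 (SE 0.10, adjusted p = 0.0445), a call lost on leaving out any array except shEzh2.556 array 2, with adjusted p from 0.0909 to 0.175. Kdm3a, a gene induced by hypoxia, also had all 4 lymphoma arrays below both premalignant arrays, with overlapping hairpins and a difference of -0.30 (adjusted p = 0.1).

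Of the Kdm4 enzymes, which remove trimethylation of H3K9 and H3K36, 2 of 3 fell. Kdm4a read 10.66 and 10.59 in premalignant cells, 9.96 and 10.08 with shEzh2.781 and 10.18 and 10.16 with shEzh2.556. The shEzh2.781 arrays were the lowest, unlike in most of the demethylases, and the fall was 0.53 (SE 0.10, adjusted p = 0.00262). Kdm4b read 9.18 and 9.30 in premalignant cells and between 8.82 and 8.87 in all 4 lymphoma arrays. The lymphoma values were close together and well below the premalignant ones, and the fall was 0.39 (SE 0.10, adjusted p = 0.015). The Kdm4b call was lost without premalignant array 2 (-0.33, adjusted p = 0.115). Kdm4c differed by -0.19 (adjusted p = 0.304), and its premalignant and shEzh2.781 arrays overlapped.

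The Kdm5 enzymes, which remove trimethylation of H3K4 from promoters, both passed the test, but for Kdm5b the call rested on a single premalignant array. Kdm5a, found as a partner of the retinoblastoma protein, read 10.23 and 10.06, 9.71 and 9.82, and 9.67 and 9.91. All lymphoma arrays were lower than both premalignant arrays, and the fall was 0.37 (SE 0.11, adjusted p = 0.041). Kdm5b read 7.92 and 8.58 in premalignant cells, 7.57 and 7.52 with shEzh2.781 and 7.88 and 7.97 with shEzh2.556. Its premalignant arrays were farther apart (0.66) than those of any other member, and the lower of them lay inside the range of the shEzh2.556 arrays. The difference of -0.51 (SE 0.15, adjusted p = 0.0399) was -0.19 (adjusted p = 0.355) without premalignant array 2. It was also not called without shEzh2.556 array 1 (adjusted p = 0.107) or 2 (adjusted p = 0.0699). The Kdm5a call was lost without either premalignant array, without shEzh2.781 array 1 and without shEzh2.556 array 1, with adjusted p from 0.0733 to 0.278.

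Kdm6b (JMJD3), the demethylase that removes the H3K27 methylation laid by Ezh2 and is induced by inflammatory signals, read 9.77 and 9.79 in premalignant cells, 9.11 and 9.38 with shEzh2.781 and 9.16 and 9.28 with shEzh2.556. Both hairpin groups were lower to a like extent and overlapped each other. It fell by 0.55 (SE 0.11, adjusted p = 0.00403). Kdm6a (UTX), the X-linked enzyme of the same reaction and not one of the 35 genes, differed by -0.41 without passing the test (adjusted p = 0.0845), with premalignant arrays at 10.25 and 9.78, shEzh2.781 arrays at 9.41 and 9.49 and shEzh2.556 arrays at 9.58 and 9.96. Ezh1, the paralogue of Ezh2 that adds the same mark, differed by -0.04 (adjusted p = 0.86), and by 0.0074 after quantile normalization.

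The PHD finger demethylases both fell. Phf2, which removes H3K9 dimethylation and works as a coactivator, read 11.61 and 11.76 in premalignant cells, 11.03 and 11.12 with shEzh2.781 and 10.63 and 10.68 with shEzh2.556. As for Kdm1b, the 3 groups were separate and the shEzh2.556 arrays were the lowest, and the fall was 0.82 (SE 0.10, 95% interval -1.04 to -0.61, adjusted p = 0.000137). Phf8, an X-linked enzyme for H3K9 and H4K20, read 10.01 and 10.19, 9.74 and 9.78, and 9.52 and 9.73. It fell by 0.41 (SE 0.11, adjusted p = 0.0203), a call lost without premalignant array 2 (-0.32, adjusted p = 0.165) or shEzh2.556 array 1 (-0.36, adjusted p = 0.0625).

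**Figure D3:**
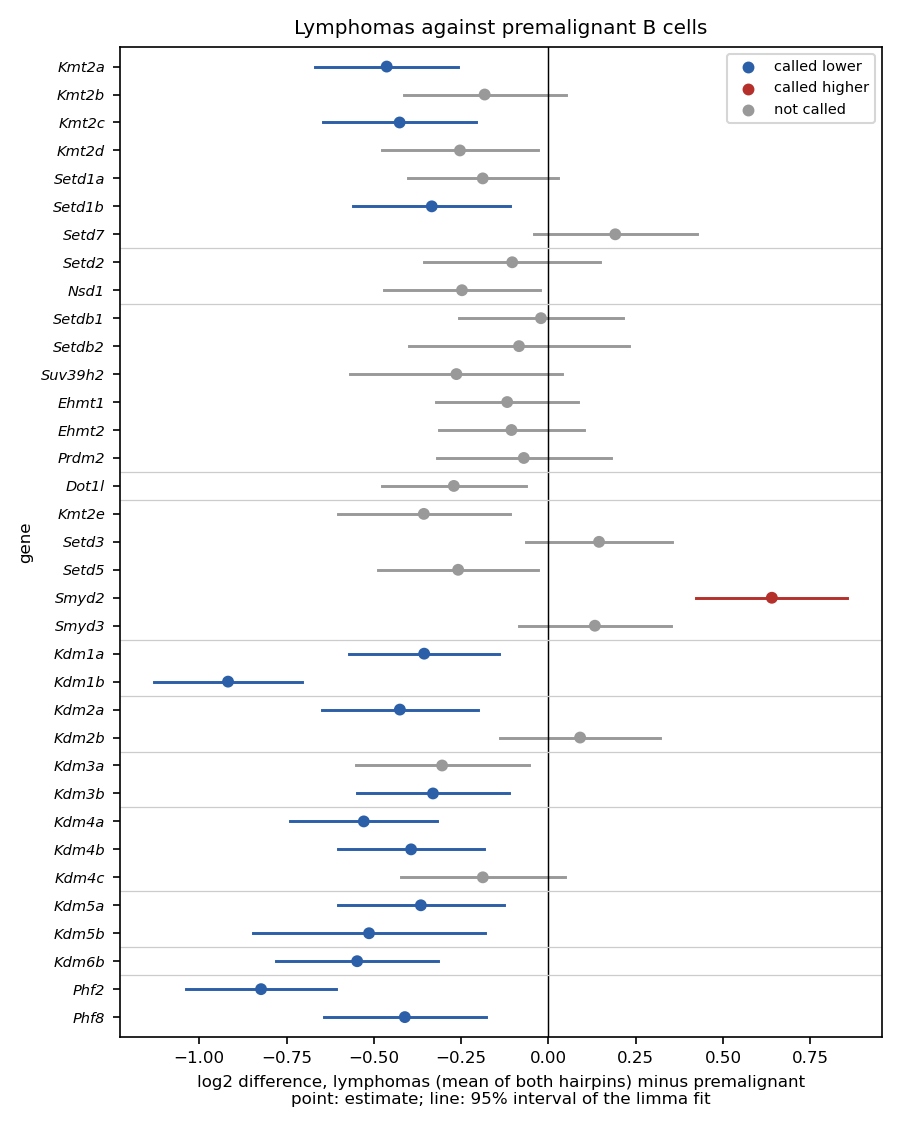
Points are the log2 differences between the mean of both hairpin groups and premalignant cells for the 35 genes, with 95% intervals of the limma fit, coloured by whether the adjusted p was under 0.05. The demethylases fill most of the lower end, led by Kdm1b (-0.92) and Phf2 (-0.82), and Smyd2 (0.64) stands alone at the upper end.

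The arrays of a group differed by little for these genes. Over the 35 genes the median gap between the 2 arrays was 0.10 in premalignant cells, 0.08 with shEzh2.781 and 0.16 with shEzh2.556. All 35 had a mean signal above the median of all genes (7.10), from 7.91 to 11.14, so none was near the floor of the array. For Kmt2d, Setd1b, Setd2, Prdm2 and Setd3 a second probe set was measured, with differences of -0.29, -0.30, -0.16, -0.11 and 0.10, each of the sign of the probe set used.

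Taken 1 hairpin at a time, against the same 2 premalignant arrays, the demethylases again made up most of the falls. With shEzh2.781, 8 of the 35 genes fell and 1 rose, against 6.24% lower and 4.6% higher among all genes, and the median difference was -0.24 (-0.03 over all genes). The falls were those of Kmt2a (-0.42), Setd1b (-0.50), Kdm1b (-0.70), Kdm2a (-0.41), Kdm4a (-0.61), Kdm5b (-0.71), Kdm6b (-0.53) and Phf2 (-0.61), and Smyd2 rose by 0.73 (SE 0.11, adjusted p = 0.00142). Adjusted p for the falls ran from 0.00174 for Kdm1b to 0.0464 for Kdm2a. Smyd2, Kdm1b, Kdm4a and Phf2 were called whichever array was left out. The 9 calls became 4 when premalignant array 2 was omitted, 5 on omission of shEzh2.781 array 1, and 6 when either premalignant array 1 or the second shEzh2.781 array was omitted. Calls on Kmt2a (adjusted p from 0.0882 to 0.174) and Kdm2a (0.0884 to 0.282) were lost on leaving out any of these 4 arrays. The call on Kdm5b was lost without premalignant array 2 (-0.38, adjusted p = 0.159). Those on Setd1b (adjusted p from 0.0552 to 0.128) and Kdm6b (0.0603 to 0.161) were lost on leaving out shEzh2.781 array 1 or premalignant array 2, and also shEzh2.781 array 2 for Setd1b and premalignant array 1 for Kdm6b.

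With shEzh2.556, 11 of the 35 genes fell and 1 rose, against 11.4% lower and 6.8% higher among all genes, with a median of -0.30 (0.07 over all genes). Of the 14 demethylases 9 fell. Kdm1b fell 2.20-fold (log2 difference -1.14, adjusted p = 3.03e-05) and Phf2 2.05-fold (-1.04, adjusted p = 7.21e-05). Kmt2a (-0.51), Kmt2c (-0.55), Kdm1a (-0.46), Kdm2a (-0.44), Kdm3b (-0.41), Kdm4a (-0.45), Kdm4b (-0.41), Kdm6b (-0.56) and Phf8 (-0.48) fell as well, with adjusted p from 0.00613 to 0.03. Smyd2 rose by 0.55 (adjusted p = 0.00616). Only Smyd2, Kdm1b and Phf2 were called without shEzh2.556 array 1, the other 9 then having adjusted p from 0.0541 to 0.207. Single calls were also lost without premalignant array 1 (Kmt2c, Kdm1a, Kdm2a, Kdm3b and Kdm4a, adjusted p from 0.0545 to 0.0987), premalignant array 2 (Kdm2a, Kdm3b, Kdm4b and Phf8, 0.0682 to 0.0908) or shEzh2.556 array 2 (Kdm4a, 0.0629, and Kdm4b, 0.0771).

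**Figure D4:**
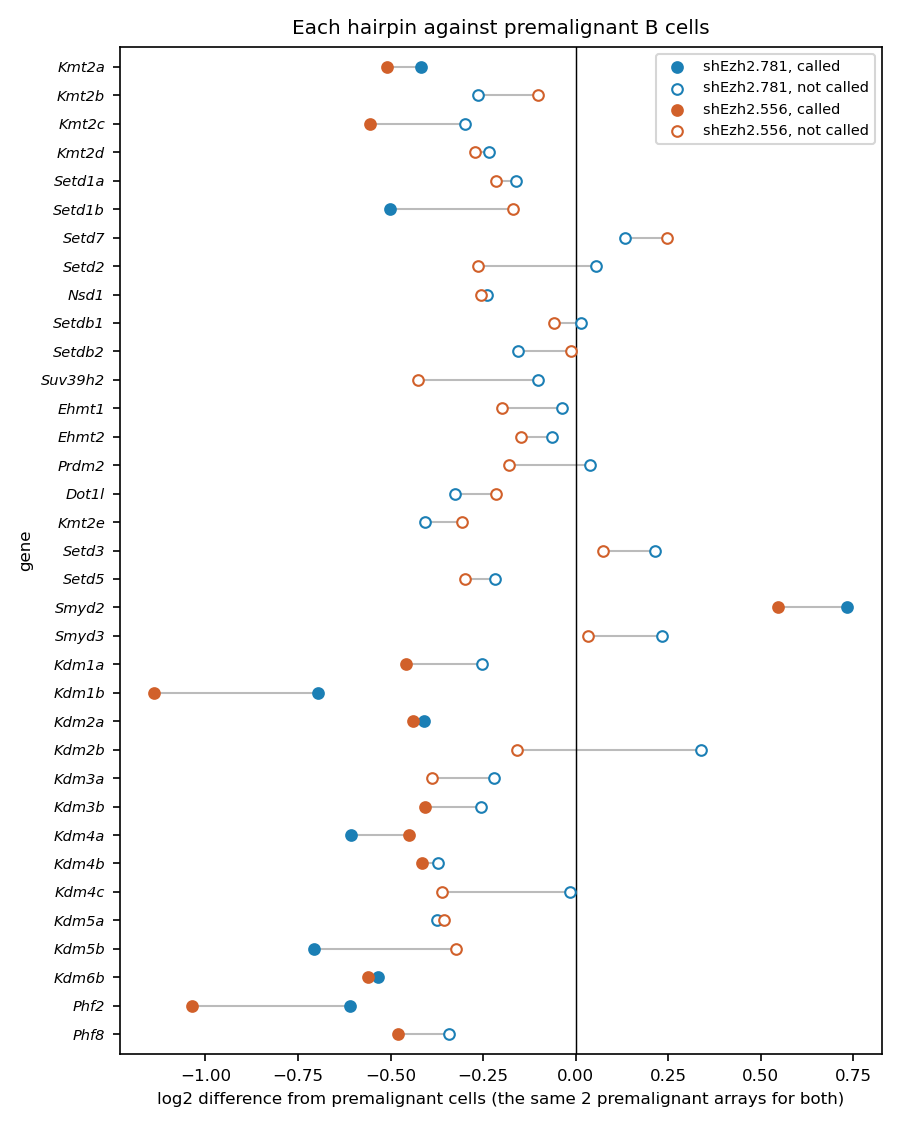
Points are the log2 differences of shEzh2.781 and of shEzh2.556 lymphomas from premalignant cells for each of the 35 genes, filled where called. Both sets of points use the same 2 premalignant arrays. The hairpins stand apart most for Kdm2b, Kdm1b and Phf2, and both lie to the right of 0 for Smyd2.

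The lymphomas of the 2 hairpins were compared directly, which uses no premalignant array. Of the 35 genes 3 were higher with shEzh2.781 and none was lower, against 5.5% higher and 4.53% lower among all genes, and the median difference was 0.08 (-0.07 over all genes). Kdm2b was higher with shEzh2.781 by 0.50 (SE 0.12, 95% interval 0.23 to 0.76, adjusted p = 0.027), Kdm1b by 0.44 (SE 0.11, 95% interval 0.20 to 0.69, adjusted p = 0.0312) and Phf2 by 0.43 (SE 0.11, 95% interval 0.18 to 0.67, adjusted p = 0.0373). All of them had both shEzh2.781 arrays above both shEzh2.556 arrays, an order found in 18 of the 35 genes and in 25% of all genes, while 5 (Kmt2b, Setd1b, Dot1l, Kdm4a and Kdm5b) had the reverse order, as did 40.1% of all genes. The widest gaps in that reverse direction, those of Kdm5b (-0.38) and Setd1b (-0.33), were not called. None of these calls survived every omission of a lymphoma array. Kdm1b and Phf2 were not called without any 1 of the 4 lymphoma arrays (adjusted p from 0.0774 to 0.161 and from 0.0884 to 0.201), and Kdm2b was not called without shEzh2.781 array 1, shEzh2.556 array 1 or shEzh2.556 array 2 (0.0637 to 0.154). After quantile normalization their adjusted p was 0.0727 for Kdm2b, 0.0506 for Kdm1b and 0.0771 for Phf2. The shares for the order of the hairpin groups are over all genes, whereas all 35 members were brighter than the median gene. No such share was taken among genes of like brightness. The difference was above 0 in 26 of the 35 genes and below 0 in 9. Among all 19938 genes it was above 0 in 7988 and below 0 in 11950. Among the 19 mitosis genes it was above 0 in 15 and below 0 in 4.

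Neutrophil markers move with the hairpin comparison as well, 11 of 11 being higher with shEzh2.781 (median difference 1.83), while 0 of 19 mitosis genes were called. Erythroid markers moved the other way, 5 of 6 being lower with shEzh2.781 (median difference -0.85). The Y-linked demethylases Kdm5d and Uty also separate the hairpins. Kdm5d read 5.19 and 8.66 in premalignant cells, 8.68 and 8.89 with shEzh2.781 and 5.63 and 5.57 with shEzh2.556. Uty read 4.83 and 8.52, 8.63 and 9.15, and 4.83 and 4.90. Premalignant array 2 and both shEzh2.781 arrays were thus high and the other 3 low, so the Y-linked signal and the hairpin cannot be told apart between the lymphoma groups, and its part in the result was not tested. When each hairpin was set against the premalignant array at its own Y-linked level, 5 genes were called lower and 1 higher with shEzh2.781, and 8 lower and 1 higher with shEzh2.556. Over all genes the same fits called 5.17% lower and 3.32% higher with shEzh2.781, and 8.63% lower and 5.97% higher with shEzh2.556. Kdm1b then differed by -0.76 with shEzh2.781 and -1.08 with shEzh2.556. In the same order Phf2 differed by -0.69 and -0.96, Kdm4a by -0.57 and -0.48, and Smyd2 by 0.82 and 0.46. Not all genes moved alike with both hairpins in these fits. Kdm5b differed by -1.03 and 0.01, and Suv39h2 by 0.14 and -0.66. The counts for shEzh2.556 take in Suv39h2, an H3K9 methyltransferase not called with both premalignant arrays (-0.43).

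Other enzymes of the same class and the partners of these enzymes were counted in lists of their own. Beside these counts, 9.61% of all genes were called lower and 5.6% higher. Among the 8097 genes at or above the mean signal of the dimmest member, the shares were 13.6% and 8.72%. No test compared a list with these shares. Of 18 other lysine methyltransferases 3 fell, namely Nsd2 by 0.64 (adjusted p = 0.0011), which dimethylates H3K36, Kmt5c by 0.49 (adjusted p = 0.00398), which trimethylates H4K20, and Prdm1, the plasma cell repressor, by 0.43 (adjusted p = 0.0256). Of 12 other demethylases only Jmjd1c, a relative of Kdm3a, fell, by 0.40 (adjusted p = 0.0205), and its value was -0.17 (adjusted p = 0.33) with the mean of its probe sets. The complexes of the H3K4 methyltransferases gave 3 falls and 1 rise in 15 genes. Those were the chromatin reader Psip1 (-0.41), the host cell factors Hcfc1 (-0.33) and Hcfc2 (-0.43), and the shared core subunit Wdr5 (0.30, adjusted p = 0.0494). Psip1 was called lower with shEzh2.556 (-0.71) but not with shEzh2.781 (-0.10), and its lymphoma and premalignant arrays overlapped. Of 9 Dot1l and elongation complex genes Aff1 (-0.43) and Aff3 (-0.43) fell and Mllt6 (0.39) rose. In that list Ell2, an elongation factor named here after its values were seen, differed between the hairpins. It read 7.71 and 7.95 in premalignant cells, 7.26 and 7.47 with shEzh2.781 and 8.18 and 8.54 with shEzh2.556, and was lower with shEzh2.781 by 0.99 on the log2 scale (difference -0.99, SE 0.15, adjusted p = 0.00191), a call that held with any 1 array left out. Of 11 partners of the H3K9 enzymes 3 fell, among them the Setdb1 cofactor Atf7ip (-0.46, adjusted p = 0.0166) and the heterochromatin protein Cbx1 (-0.34, adjusted p = 0.033). The partners of Kdm1a gave 4 falls in 12 genes. The CoREST subunit Rcor2 read 9.58 and 9.56 in premalignant cells, 8.55 and 8.24 with shEzh2.781 and 7.81 and 7.83 with shEzh2.556, and fell by 1.46 (adjusted p = 4.14e-06). Its relative Rcor1 (-0.49) and the repressors Gfi1b (-0.79) and Gfi1 (-0.44), which bring Kdm1a to DNA, fell too. By hairpin, Gfi1 differed by -0.13 with shEzh2.781 and by -0.76 with shEzh2.556. Of 9 genes of the Kdm5 and SIN3 complexes 4 fell, Sin3a (-0.33), Sin3b (-0.43), Arid4a (-0.44) and Arid4b (-0.43). Of the 22 genes called in these lists, Nsd2, Kmt5c, Rcor2 and Gfi1b were called with any 1 array left out. The other 18 lost the call on leaving out premalignant array 1 or 2, with adjusted p from 0.0536 to 0.238. With the lymphomas fitted as 1 group 17 of the 22 lost it, Nsd2, Kmt5c, Rcor2, Rcor1 and Sin3b being the exceptions, with adjusted p from 0.052 to 0.375.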

How the data were processed

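For every probe set and array the table deposited by the authors gives 1 value, already normalized. That these deposited values are on a log2 scale was inferred from their range (2.30 to 14.22, array medians 6.75 to 6.91), and the background correction, normalization and summarization are not given in the sources used here. The platform annotation gives 1 symbol for 21789 of the 35512 probe sets, several for 1621 and none for 12102, and only the probe sets with 1 symbol were used. Of those with 1 symbol, 21698 matched the RefSeq gene table (GRCm38.p6) by Entrez identifier, and no symbol changed. The brightest probe set stood for each of the 999 genes with several, which gave 19938 genes.

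A single limma fit (version 3.58.1, R 4.3.3) held the 3 groups without covariates, with empirical Bayes moderation (prior df 8.51, residual df 3) and Benjamini-Hochberg adjustment over all genes. A gene was called at an adjusted p under 0.05, and "rose" and "fell" are used of called genes alone. Differences and intervals are on the log2 scale, and folds are their antilogs. The fit was run on simulated data with independent noise between arrays. Besides a limit on false calls, that run required recovery only of changes larger than any reported for the listed genes. Python 3.11.15 with pandas 2.3.3 and matplotlib 3.10.9 served for tables and plots. The number of arrays limits the precision, and a level of 1 probe set says nothing about the level of another.

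Any of the 37 genes could be named. A gene called in any comparison was to be given with all its array values, with up to 4 such genes per role, and from each list of other enzymes or partners up to 4 genes with the smallest p. Ezh2, Ezh1 and Kdm6a were always to be given. Promoters are those of the 3 called genes with the smallest p in each direction that were in the table; Smyd2 was the only called rise. Kdm5d, Uty and Ell2 were added after their values were seen. The members and lists, marker lists included, were chosen with earlier results of these data known. Alternatives were quantile normalization, a filter on genes below the 25th percentile of mean signal, the mean of a gene's probe sets, a mean-variance trend with robust moderation, the replicate number as a block, only the compared groups in the fit (for both hairpins, the 4 lymphoma arrays as 1 group), and leaving out each array in turn. A group left with 1 array is then assumed to vary like the others. The replicate numbers did not pair the samples: the deviations of same-numbered arrays from their group means correlated at -0.09, -0.12 and 0.06 across genes.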

Additional observations from a re-analysis of the deposited data

Results flagged for a closer look

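The lymphomas of the 2 hairpins differed, by the direct limma test between them, for 3 of the 35 histone enzyme genes. Over all genes 5.5% were called higher and 4.53% lower with shEzh2.781. Of the 3 calls 0 held under every alternative. The log2 difference shEzh2.781 minus shEzh2.556 was 0.44 for Kdm1b (-0.70 and -1.14 against premalignant cells), 0.50 for Kdm2b (0.34 and -0.16) and 0.43 for Phf2 (-0.61 and -1.04). Among partner genes it was 0.61 for Psip1, a chromatin reader that tethers MLL complexes (limma adjusted p = 0.00932). It was 0.58 for the CoREST subunit Rcor2 (0.0158) and 0.63 for the repressor Gfi1 (0.00467). The call on Psip1 was lost without shEzh2.556 array 1 (difference 0.57). That on Rcor2 was lost without shEzh2.781 array 1 (0.42) or either shEzh2.556 array (0.57 and 0.58). For the elongation factor Ell2, named after its values were seen, the difference between hairpins ran the other way at -0.99 (-0.47 and 0.52 against premalignant cells). The Y-linked demethylases Kdm5d and Uty, looked at after their values were seen, differed by 3.19 and 4.02. The causes were not tested.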

How the results depend on the processing

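Of the members called in lymphomas of both hairpins, Kmt2a, Smyd2, Kdm1b, Kdm4a, Kdm6b and Phf2 stayed called under all 12 alternatives, and none of the 15 changed direction under any. For single hairpins this held for 4 of 9 (shEzh2.781) and 3 of 12 (shEzh2.556), and between hairpins for 0 of 3. With both hairpins, fitting the lymphomas as 1 group took the called members from 15 to 6 and all called genes from 3033 to 1091. Leaving out 1 array gave 7 to 16 members and 1721 to 2833 genes for both hairpins, 4 to 9 and 1103 to 2048 for shEzh2.781, 3 to 12 and 1949 to 3669 for shEzh2.556, and 0 to 3 and 718 to 2085 between hairpins. Quantile normalization left 0 called members between hairpins (1384 genes called in all). It raised the share of higher calls among all called genes from 36.8% to 49.2% for both hairpins and from 37.3% to 50.7% for shEzh2.556, while moving the median of all genes for both hairpins from 0.03 to 0.07. With the replicate block, whose numbers pair no samples, 13 members and 2889 genes were called for both hairpins, 8 and 2078 for shEzh2.781, 12 and 3371 for shEzh2.556, and 3 and 1783 between hairpins. Kmt2e, not called in the report, passed with the trend and robust moderation (adjusted p = 0.0112), the filter on dim genes (0.0472), the replicate block (0.0417), and without shEzh2.781 array 2 (0.0474) or shEzh2.556 array 2 (0.0272). Dot1l (0.0194) and Setd5 (0.0404) passed with the trend and robust moderation, and Kdm3a (0.0298) without shEzh2.556 array 2. In the comparison of both hairpins with premalignant cells, signs turned for 4 uncalled genes: under quantile normalization for Setdb1 (0.0255), Setdb2 (0.0048) and Ezh1 (0.0074), and on leaving out 1 array for Setdb1 (-0.0899 to 0.047), Setdb2 (-0.2384 to 0.0696), Prdm2 (-0.1622 to 0.0209) and Ezh1 (-0.0988 to 0.0197). For single hairpins, 6 uncalled values also turned on leaving out the premalignant array of the other Y-linked level: Setdb1 (-0.04), Suv39h2 (0.14) and Kdm4c (0.09) with shEzh2.781, and Kmt2b (0.0027), Kdm5b (0.0062) and Smyd3 (-0.02) with shEzh2.556. Apart from the smaller number of arrays in a fit, the causes of these changes were not tested.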

Other observations

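Kdm1b and Phf2, the members with the largest falls, both lie on chromosome 13. This was looked at after their values were seen. Of the 11 measured genes between them in the order of the RefSeq table, 2 were called lower in lymphomas of both hairpins and 0 higher, against 9.61% and 5.6% of all genes. Those called were Rnf144b, a ubiquitin ligase (-0.52, adjusted p = 0.00247 by limma), and the microRNA gene Mirlet7d (-0.39, adjusted p = 0.0396). Dek, a chromatin protein next to Kdm1b, differed by -0.24 (adjusted p = 0.129). On the outer side of Kdm1b the thiopurine methyltransferase gene Tpmt fell by 0.65 (adjusted p = 0.00167), whereas Fam120a beyond Phf2 differed by 0.07 (adjusted p = 0.709). Of the 9 genes between them that did not pass the test, 3 had a mean below the 25th percentile of all gene values.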
